A study of Mus musculus with 6 samples.

Results

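This section describes 10 genes of the hypoxia response outside glycolysis in LT-HSCs, the rare long-term repopulating stem cells of the bone marrow that renew the blood. The members were listed by symbol as regulators of the hypoxia-inducible factors (HIFs) or as known HIF targets. All 10 were found by Entrez identifier among the 21761 genes of the table, and all 10 passed the filter on low counts that left 12807 genes for testing.

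Both groups were donor marrow cells carrying the Mx1-Cre transgene (Mx1-Cre tg/+), transplanted into lethally irradiated CD45.1/2 hosts and exposed to poly(I:C), a synthetic RNA that switches on the interferon-responsive Mx1 promoter and so the Cre recombinase. The IMP1 group (Rosa26 I/+;Mx1-Cre tg/+) also carried a conditional IMP1 cassette at the Rosa26 locus, and the Control group (Rosa26 +/+;Mx1-Cre tg/+) did not. IMP1 is the RNA-binding protein encoded by Igf2bp1. Cells of the phenotype CD45.2+ LSK CD150+ CD48- CD34- were sorted from the transplanted hosts at 8 weeks past the final injection, 200 cells per library, with 3 biological replicates per genotype. The hosts carry the CD45.2 allotype as well as CD45.1, Mx1-Cre acts in every interferon-responsive cell, and neither the age nor the sex of the animals was given in the sources used here.

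Cells sense oxygen through prolyl hydroxylases, enzymes of the Egln family that use oxygen to mark HIF alpha subunits for destruction by the von Hippel-Lindau ubiquitin ligase. When oxygen is scarce the alpha subunits, encoded by Hif1a and Epas1, accumulate, pair with ARNT and bind a short core motif in the control regions of target genes. HIF activity is therefore set mainly through the stability of the alpha proteins, which an mRNA measurement does not see. LT-HSCs live in marrow regions that are poor in oxygen, and HIF signalling is known for its part in their glycolytic metabolism and quiescence.

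The core HIF motif was searched in the 250 bases before annotated transcript starts, to show which members carry these letters there. The letters ACGTG and GCGTG were taken on both strands, so that the palindrome CACGTG, also the binding sequence of MYC and related factors, counts as a match. RefSeq promoter windows of GRCm38.p6 were found for 7 of the 10 members, 8 windows in all, since Vegfa has 2. The Hif1a window (chr12:73907617-73907866) and the second Vegfa window (chr17:46025164-46025413) lie inside the annotated span of their gene. Both held ACGTG, count in the shares below and are not printed. The motif was present in 7 of 8 windows (87.5%), against 54.6% of the 12908 windows of genes tested and 38.6% of all 32851 windows. The form ACGTG was present in 6 of 8 (75%), against 21.4% and 16.6%. With ACGTG and GCGTG counted together, the other gene lists described below also exceeded the share of genes tested. Theirs ran from 60% (VEGF ligands and receptors) to 82.1% (other HIF targets outside glycolysis), with 77.8% for immediate-early genes. For ACGTG alone the same lists lay on both sides of the 21.4% of genes tested. They ran from 0% (VEGF ligands and receptors) to 46.4% (other HIF targets outside glycolysis), with 33.3% for immediate-early genes. The members' windows had a median GC content of 68.2% against 59.2% for the windows of genes tested, and a match describes letters, not binding. The windows below are those of 2 members whose libraries did not overlap between genotypes (Higd1a and Vegfa) and of 3 described HIF targets with ACGTG in their window (Egln3, Bnip3 and Ddit4). They run 5′ to 3′ on the gene's strand, with the motif in capitals.
Higd1a chr9:121857797-121858046 (minus strand): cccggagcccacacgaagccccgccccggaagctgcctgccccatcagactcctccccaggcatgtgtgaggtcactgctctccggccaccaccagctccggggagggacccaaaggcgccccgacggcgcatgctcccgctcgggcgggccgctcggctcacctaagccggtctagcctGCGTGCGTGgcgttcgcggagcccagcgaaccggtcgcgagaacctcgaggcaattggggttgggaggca
Vegfa chr17:46032378-46032627 (minus strand): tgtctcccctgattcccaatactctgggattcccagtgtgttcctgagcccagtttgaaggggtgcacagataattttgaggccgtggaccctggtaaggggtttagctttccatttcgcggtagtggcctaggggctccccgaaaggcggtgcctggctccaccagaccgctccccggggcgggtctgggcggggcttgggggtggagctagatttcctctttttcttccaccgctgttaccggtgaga
Egln3 chr12:54203875-54204124 (minus strand): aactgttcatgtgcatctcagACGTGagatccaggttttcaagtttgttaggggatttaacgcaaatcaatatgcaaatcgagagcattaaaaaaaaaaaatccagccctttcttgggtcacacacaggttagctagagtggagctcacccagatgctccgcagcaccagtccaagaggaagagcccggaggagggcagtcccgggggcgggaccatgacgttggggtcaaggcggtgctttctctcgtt
Bnip3 chr7:138909507-138909756 (minus strand): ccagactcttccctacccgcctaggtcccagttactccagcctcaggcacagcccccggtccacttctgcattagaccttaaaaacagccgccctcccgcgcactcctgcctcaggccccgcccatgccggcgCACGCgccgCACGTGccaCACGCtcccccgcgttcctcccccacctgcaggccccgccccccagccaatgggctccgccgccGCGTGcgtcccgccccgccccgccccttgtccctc
Ddit4 chr10:59951771-59952020 (minus strand): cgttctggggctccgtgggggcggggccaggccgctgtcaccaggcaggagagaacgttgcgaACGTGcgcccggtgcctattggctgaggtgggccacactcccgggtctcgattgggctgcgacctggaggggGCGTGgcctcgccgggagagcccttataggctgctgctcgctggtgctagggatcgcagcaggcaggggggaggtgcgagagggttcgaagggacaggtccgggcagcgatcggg

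Bnip3 held the most matches, 5, with CACGTG starting 108 bases before the start. Higd1a held GCGTG at 70 and 66 bases before the start, overlapping in 1 letter, and no ACGTG. The window before the first Vegfa start held neither form, which says only that these letters are not in these 250 bases. Egln3 held 1 match, 229 bases before the start, and Ddit4 held ACGTG at 187 and GCGTG at 115 bases before it.

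Depth differed with genotype. Control libraries held 25749898 to 27338450 counts and IMP1 libraries 50220629 to 67083116, on average 2.26 times as many, so depth and genotype cannot be told apart. Igf2bp1 reads numbered 0, 0 and 1 in Control and 1870, 2084 and 2016 in IMP1 libraries, which fits the genotype labels. All 10 LT-HSC markers examined were detected, with a summed level of 2615 to 2667 CPM in Control and 2656 to 3208 CPM in IMP1 libraries. CPM are counts-per-million values on library sizes scaled by TMM, the trimmed mean of M values. Cd34, whose protein was gated out, was nevertheless present as mRNA, with 263 to 317 CPM in Control libraries and 141 to 213 CPM in IMP1 libraries. Cd48, also gated out, stood at 18.1, 1.86 and 2.84 CPM in Control and at 26.8, 7.86 and 3.31 CPM in IMP1 libraries. Flt3 stood at 12.7, 7.95 and 10.8 CPM in Control and at 30, 6.44 and 19.8 CPM in IMP1 libraries. Both overlapped between groups, with log2 fold changes of 0.73 and 0.84, against -0.75 for Cd34. Il7r was at most 0.119 CPM in any library. Some libraries stood apart in markers of other cells. Of 7 erythroid genes the sum was 35.6 to 43.4 CPM in Control libraries and 323 CPM in IMP1 1, against 70.3 and 88.8 CPM in IMP1 2 and 3. Of 6 lymphocyte genes the sum was 31.2 CPM in IMP1 2 and at most 0.11 CPM elsewhere, while Cd3g and Il2rb were at 0 throughout. Of 6 neutrophil and monocyte genes the sum was 462 to 525 CPM in Control and 726, 585 and 280 CPM in IMP1 libraries 1 to 3, with single genes going opposite ways and 0 called. S100a9 stood at 1.95, 4.47 and 1.24 CPM in Control and at 189, 106 and 4.72 CPM in IMP1 libraries (adjusted p = 0.104), and S100a8 at 9.47, 12 and 5.24 CPM and at 243, 171 and 11.4 CPM (adjusted p = 0.114). Mpo stood at 25.3, 7.4 and 0.36 CPM in Control and at most 0.0314 CPM in IMP1 libraries (adjusted p = 0.085), and Lyz2 at 463 ± 45.9 and 288 ± 23 CPM (adjusted p = 0.0614). The part of such cells in the members' values was not tested. Of 11 immediate-early genes the sum was 379 CPM in IMP1 2 and 110 to 159 CPM in the other 5 libraries. In such bulk samples a change in the share of a cell type and a change in the RNA of each cell cannot be told apart.

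No member passed the test across all genes at an adjusted p under 0.05 (0 of 10, edgeR's quasi-likelihood test with Benjamini-Hochberg adjustment). Over all genes, 27 of 12807 passed, or 0.211%, with 9 higher and 18 lower in IMP1 libraries (9 and 7 when scaled by library totals alone). Ndrg1 came nearest, about 7.69-fold lower in the IMP1 libraries. Ndrg1, Higd1a and Bnip3l had every IMP1 library below every Control library (3 of 10 members, against 11.1% of all genes tested), and Vegfa had every IMP1 library above (1 of 10, against 10.7%). The same 3 genes were lower at an unadjusted p under 0.05 (background 7.63%), and Vegfa was higher (background 6.67%). Over the other settings, the 3 lower genes kept an unadjusted p under 0.05 in 18 of 18, but Vegfa in only 7 of 17. DESeq2 called Ndrg1, Higd1a and Bnip3l (3 of 10), against 5.55% of all genes to which it gave an adjusted p. limma-voom called 0 of 10, against 0.0859% of all genes. The median log2 fold change of the 10 members was -0.33, with 3 positive and 7 negative, against a median of 0.03 over all genes tested, of which 52.2% were positive.

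**Figure D1:**
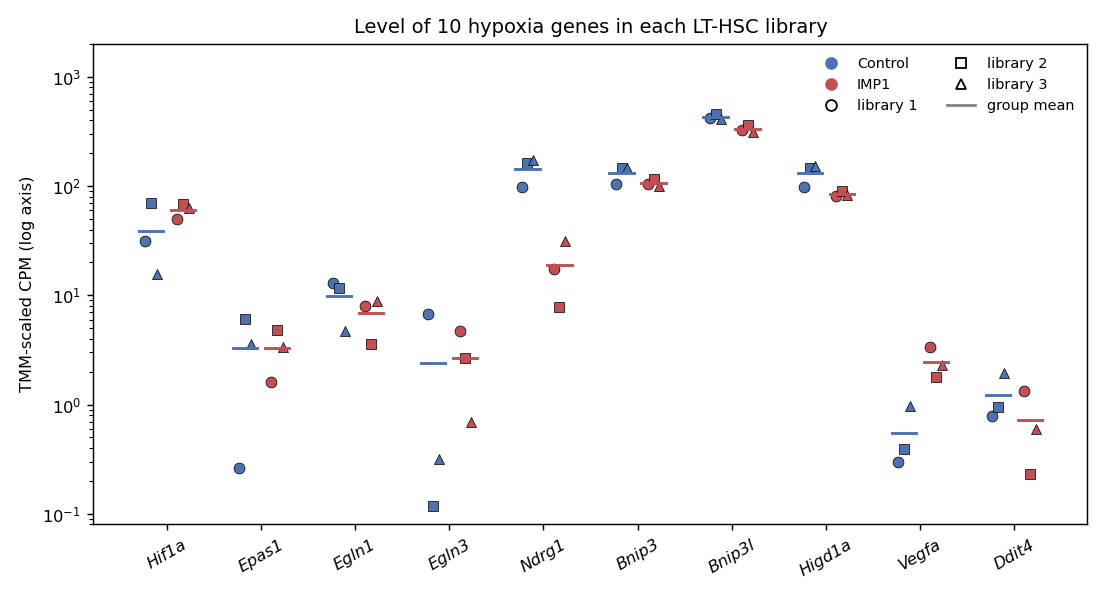
TMM-scaled CPM (log axis) of the 10 members in each of 3 Control (blue) and 3 IMP1 (red) libraries, with marker shapes for the library number and lines for group means. Ndrg1, Bnip3l and Higd1a have all IMP1 points below all Control points and Vegfa all above, while the other 6 genes overlap.

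The HIF alpha subunits are described first. Hif1a, the alpha subunit found in nearly all cells, stood at 31.3, 69.5 and 15.7 CPM in the Control libraries and at 50.5, 68.2 and 63.4 CPM in the IMP1 libraries. The Control libraries thus spread 4.41-fold, around an IMP1 group that spread 1.35-fold, and Control 2 was above every IMP1 library. The group means were 38.8 ± 27.6 and 60.7 ± 9.16 CPM (SD, n = 3 each), with a log2 fold change of 0.64 (95% interval -0.44 to 1.73, adjusted p = 0.599). Over 18 other settings the log2 fold change lay between 0.27 and 1.37, the highest being that without Control 2 (adjusted p = 0.235). Exons of Hif1a overlap the antisense transcript Gm15283 by 191 bases and the protein-coding gene Gm49321, on the same strand, by 148 bases. Epas1, which encodes HIF2 alpha and is best known from endothelium and from erythropoietin-producing kidney cells, was far scarcer per unit of transcript length. It stood at 0.263, 6.05 and 3.6 CPM in Control and at 1.6, 4.82 and 3.39 CPM in IMP1 libraries, and only 7 reads lay behind the lowest value. Its group means were nearly equal, at 3.31 ± 2.91 and 3.27 ± 1.61 CPM, but the interval of its log2 fold change ran from -2.43 to 2.40, so changes within that range were not detectable in these libraries.

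The oxygen sensors are described next. Egln1 encodes PHD2, the main prolyl hydroxylase that sets HIF stability. It stood at 13.1, 11.7 and 4.72 CPM in Control and at 7.98, 3.61 and 8.88 CPM in IMP1 libraries. The groups overlapped, with a log2 fold change of -0.53 (95% interval -1.86 to 0.81, adjusted p = 0.745). Egln3 encodes PHD3, a hydroxylase that is itself a HIF target and so part of a negative feedback. It stood at 6.72, 0.119 and 0.32 CPM in Control and at 4.71, 2.67 and 0.694 CPM in IMP1 libraries. In Control libraries 2 and 3 only 3 and 8 reads were counted, against 179 in Control 1. Leaving out Control 1 turned its log2 fold change from 0.17 to 3.60 (adjusted p = 0.373), so this library set the Control mean.

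Ndrg1, a stress-responsive gene of the N-myc downstream-regulated family that is induced by hypoxia and repressed by MYC proteins in many cells, differed most. It stood at 97.8, 162 and 174 CPM in the Control libraries and at 17.5, 7.82 and 31.2 CPM in the IMP1 libraries. The highest IMP1 library was thus well below the lowest Control library, on 542 to 4352 reads per library. The means were 145 ± 41.1 and 18.8 ± 11.7 CPM, a log2 fold change of -2.94 (SE 0.48, 95% interval -4.06 to -1.83). The unadjusted p of 0.000281 ranked 57 among all genes tested, and the adjusted p was 0.0614. Over 18 other settings its log2 fold change lay between -3.51 and -2.57 and its adjusted p between 3.59e-11 and 0.192, passing in 4 of them (DESeq2, newer edgeR settings, no low-count filter and a strict filter, the last 3 of which called 0.383%, 0.198% and 1.4% of all genes). Exons of Ndrg1 overlap the antisense transcripts Gm17035 and Gm2895 by up to 329 bases, and without strand information their reads cannot be told apart.

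The summed level of mast cell and basophil markers was also lower in the IMP1 libraries, mainly through Fcer1a. Their sum over 5 genes was 36 to 44.9 CPM in Control and 2.45 to 14.7 CPM in IMP1 libraries. Fcer1a, the IgE receptor alpha chain gene, ranged from 21.3 to 34.7 CPM across Control libraries and from 0 to 2.37 CPM across IMP1 libraries (adjusted p = 0.246). Cpa3 overlapped, at 7.74, 13.6 and 14.7 CPM in Control and 0.377, 14.7 and 2.45 CPM in IMP1 libraries, so IMP1 2, the lowest for Ndrg1, was level with the highest Control library. Gzmb was at 0 in all 6, and Mcpt8 and Ms4a2 were at 0 in all but Control 1. The part of these cells in the Ndrg1 difference was not tested.

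Of the family of Ndrg1, Ndrg2 lay in the same direction and Ndrg3 overlapped. Ndrg2 stood at 56.1, 43.5 and 45.5 CPM in Control and at 12.7, 28.7 and 18.7 CPM in IMP1 libraries (log2 fold change -1.27, SE 0.33, adjusted p = 0.14). DESeq2 called it (adjusted p = 0.0103). Ndrg3 stood at 163, 181 and 174 CPM in Control and at 128, 136 and 181 CPM in IMP1 libraries (-0.22, SE 0.16, adjusted p = 0.597). Ndrg4 was detected in Control 3 (1.12 CPM) and IMP1 3 (4.16 CPM) and had no count in the other 4 libraries.

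Bnip3l and Bnip3 encode mitophagy receptors, outer mitochondrial membrane proteins that hand mitochondria to autophagosomes and are classical HIF targets. Bnip3l, also called NIX and required to clear mitochondria from maturing red cells, had the highest level per unit of transcript length of all members. It stood at 421, 454 and 412 CPM in Control and at 325, 365 and 314 CPM in IMP1 libraries. The groups did not overlap, and the difference was small, at 1.28-fold lower (log2 fold change -0.36, SE 0.10, 95% interval -0.59 to -0.13, adjusted p = 0.172). IMP1 1, the library with the highest sum of erythroid markers, stood at 325 CPM for Bnip3l, between IMP1 3 and IMP1 2. Without IMP1 1 the log2 fold change of Bnip3l was -0.34. Of 7 erythroid markers 4 were tested, with 3 positive and 1 negative. The globin gene Hbb-b1 was higher in all 3 IMP1 libraries (log2 fold change 1.89, adjusted p = 0.0448). Ermap (3.92, adjusted p = 0.218) also did not overlap, while Klf1 (0.38) and Epor (-0.48) did. Rhd was at or near 0 outside IMP1 1. The part of erythroid RNA in the Bnip3l difference was not tested. Bnip3 stood at 104, 147 and 146 CPM in Control and at 104, 117 and 99.2 CPM in IMP1 libraries. Its groups overlapped through Control 1 (-0.31, SE 0.17, 95% interval -0.71 to 0.10, adjusted p = 0.488). Exons of Bnip3 overlap the antisense transcript Gm45507 by 342 bases. Bnip3 has 5 near copies among annotated transcripts (93.4% to 98.9% identity over 544 to 858 bases), and Bnip3l has 1, the pseudogene Bnip3l-ps (99.2% over 663 bases). None of these copies has a row in the table, so how their reads were assigned is unknown.

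Of 15 other mitophagy genes, all tested, 4 were positive and 11 negative, with a median log2 fold change of -0.12 and 0 called. Map1lc3b, the one with the highest CPM, encodes an LC3 protein of the autophagosome membrane, the docking partner of the BNIP3 receptors. It stood at 1060, 1210 and 1192 CPM in Control and at 760, 933 and 853 CPM in IMP1 libraries, with no overlap (log2 fold change -0.44, SE 0.10, adjusted p = 0.104). DESeq2 called it (adjusted p = 0.00266). Gabarapl2, of the same protein family, stood at 137 ± 17.2 and 117 ± 10.3 CPM (-0.23, SE 0.15, adjusted p = 0.547).

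Higd1a encodes a small mitochondrial inner membrane protein that is induced by hypoxia and binds cytochrome c oxidase. It stood at 98.8, 145 and 154 CPM in Control and at 80.5, 89.4 and 83.2 CPM in IMP1 libraries. The IMP1 libraries were close together, below the lowest Control library, with a log2 fold change of -0.65 (SE 0.19, 95% interval -1.09 to -0.22, adjusted p = 0.18). Removal of a trend on transcript length and GC content took it to -0.51 (adjusted p = 0.338). Its exons overlap the antisense transcript Gm47112 by 683 bases, and Gm9790 is a near copy (99.3% over 288 bases). The paralogue Higd2a, a respiratory supercomplex factor, stood at 66.9, 71 and 75 CPM in Control and at 52.5, 54.2 and 52.2 CPM in IMP1 libraries (-0.42, SE 0.17, adjusted p = 0.302), also without overlap. Higd1b was at 0.274 CPM in IMP1 2 and 0 elsewhere, and Higd1c was not analysed here.

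Short transcripts tended to be lower in the IMP1 libraries. Genes with an average log2 CPM over 3 were divided into 4 bins of equal size by transcript length. Their median log2 fold change was -0.17 in the shortest bin, which holds Bnip3, -0.10 in the next, which holds Bnip3l and Higd1a, 0.05 in the third, which holds Hif1a and Ndrg1, and 0.17 in the longest. With the trend on length and GC content removed, Bnip3l stood at -0.40 and Ndrg1 at -2.96.

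Vegfa, the growth factor gene through which hypoxia calls for new vessels, had the lowest mean per unit of transcript length in Control cells. It stood at 0.301, 0.396 and 0.961 CPM in Control and at 3.34, 1.77 and 2.29 CPM in IMP1 libraries. These values rested on 8, 10 and 24 reads in Control and 213, 123 and 119 in IMP1 libraries. The means were 0.552 ± 0.357 and 2.47 ± 0.799 CPM, 4.46-fold higher with a wide interval (log2 fold change 2.16, SE 0.89, 95% interval 0.12 to 4.19, adjusted p = 0.32). With all libraries thinned to 25749898 counts the log2 fold change was 2.14. It was the one member that no setting called and whose groups did not overlap. Of 9 other VEGF ligands and receptors 5 were tested, with 2 positive, 3 negative and 0 called. Vegfc, the one with the highest CPM, stood at 7.53 ± 0.915 and 8.1 ± 6.68 CPM. The co-receptor Nrp2 stood at 2.01 ± 0.289 and 2.82 ± 1.29 CPM, and Nrp1 at 0.894 ± 1.45 and 0.544 ± 0.443 CPM. Vegfd had no count in any library.

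Ddit4 encodes REDD1, a brake on the growth kinase complex mTORC1 that answers to hypoxia and other stresses. It stood at 0.789, 0.95 and 1.96 CPM in Control and at 1.33, 0.231 and 0.597 CPM in IMP1 libraries, on 16 to 85 reads per library. The groups overlapped (log2 fold change -0.77, 95% interval -2.96 to 1.41, adjusted p = 0.779). Of 13 other genes that restrain mTORC1, 12 were tested, with 4 positive, 8 negative and 0 called, and a median of -0.19. Ddit4l, its paralogue, stood at 0.113, 0.277 and 0.36 CPM in Control and at 0.816, 1.54 and 0.424 CPM in IMP1 libraries (1.88, SE 0.94, adjusted p = 0.424). Sesn1, a leucine-sensing and stress-induced gene with the highest CPM of the list, stood at 126 ± 15 and 119 ± 22.7 CPM. Nprl2, of the GATOR complex, stood at 70.5 ± 26 and 44.2 ± 14.9 CPM (-0.67, SE 0.33, adjusted p = 0.417).

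**Figure D2:**
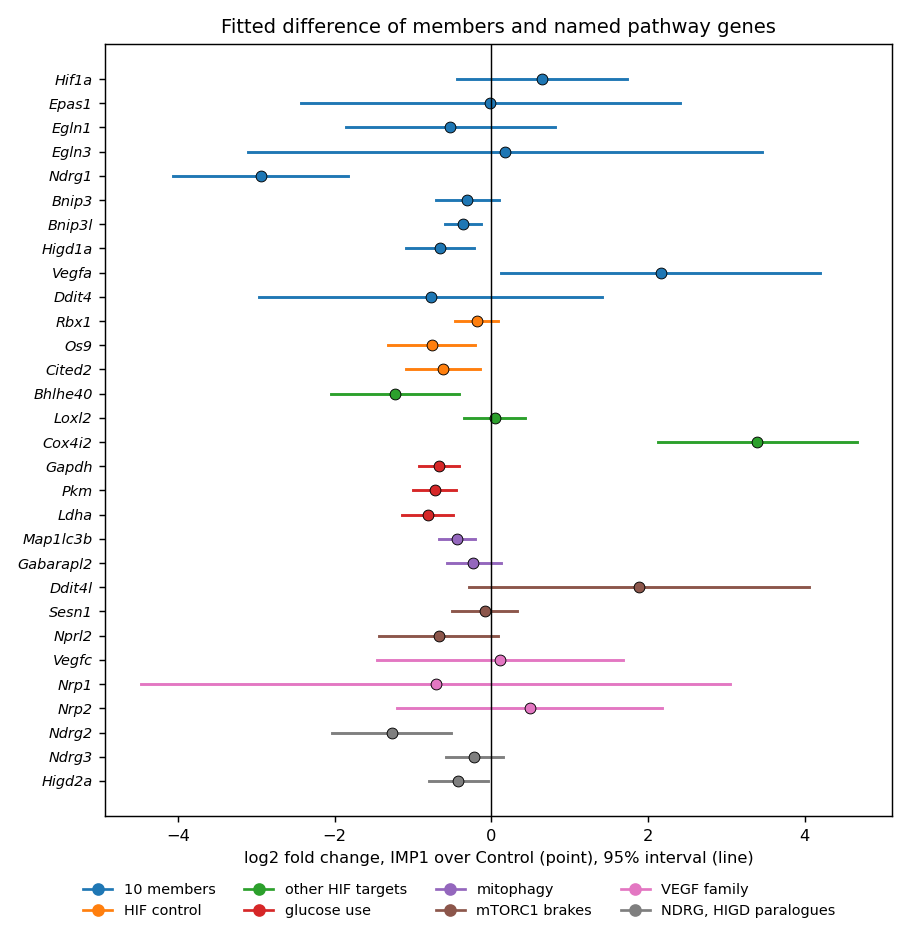
Log2 fold change of IMP1 over Control with its 95% interval for the 10 members and the named genes of 7 related lists, coloured by list. Ndrg1 (-2.94) and Cox4i2 (3.39) lie farthest from 0 with intervals that exclude it, while Epas1, Egln3 and Nrp1 have the widest intervals.

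To compare members with each other, levels were divided by the length of the longest annotated transcript. In Control libraries the order ran from Bnip3l at 132 ± 6.74 CPM per kilobase through Bnip3 (75.3 ± 14.2), Higd1a (59.5 ± 13.3) and Ndrg1 (35.8 ± 10.2) to Hif1a (8.22 ± 5.85). Egln1 (2.73 ± 1.24), Egln3, Ddit4, Epas1 and Vegfa (0.16 ± 0.103) followed. Bnip3 and Higd1a overlapped, and so did each pair of neighbours from Hif1a down. In IMP1 libraries Hif1a (12.8 ± 1.94 CPM per kilobase) stood above Ndrg1 (4.65 ± 2.9) with no overlap, the reverse of the Control order, where Ndrg1 stood above Hif1a with none. Bnip3l was higher per kilobase than 94.8% of tested genes and Vegfa than 7.82%. This rests on the length used. With the median transcript length, Ndrg1 (245 ± 69.6) stood far above Hif1a (22.1 ± 15.7) in Control, but the means were close in IMP1 libraries, at 31.9 ± 19.9 for Ndrg1 and 34.5 ± 5.2 for Hif1a.

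The other genes that control HIF went both ways. Of 16 listed, 15 were tested, with 7 positive, 8 negative and a median log2 fold change of -0.17, and 0 were called. Every IMP1 library was below every Control library for 4 of 15, against 11.1% of all genes tested. Every IMP1 library was above for 0 of 15, against 10.7%. Os9, which encodes an endoplasmic reticulum lectin reported to bind HIF and its hydroxylases, stood at 59.3, 60 and 65.8 CPM in Control and at 28.9, 47.6 and 32.5 CPM in IMP1 libraries (-0.76, SE 0.24, adjusted p = 0.218). Cited2, a HIF-induced gene whose product competes with HIF for the coactivators p300 and CBP and which is needed to maintain HSCs, stood at 50.5, 46.7 and 48.6 CPM in Control. In the IMP1 libraries it stood at 35, 27.9 and 32.1 CPM, with no overlap (-0.62, SE 0.21, adjusted p = 0.241). Rbx1, the RING subunit of the ligase that destroys HIF alpha, stood at 355 ± 15.6 and 311 ± 42.8 CPM (-0.19, SE 0.12, adjusted p = 0.539). Egln2, Arnt, Vhl and Hif3a were named outside the naming rule for their roles after their values were seen. Egln2, of the hydroxylase family, stood at 21, 26.6 and 28.1 CPM in Control and at 10.7, 20.2 and 13.9 CPM in IMP1 libraries. Its groups did not overlap (-0.76, SE 0.34, adjusted p = 0.37), while those of Arnt, Vhl and Hif3a did. Arnt, the partner subunit, had a log2 fold change of 0.11 (SE 0.34), Vhl one of -0.17 (SE 0.42) and Hif3a one of 1.65 (SE 0.97).

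Further HIF targets outside glycolysis went both ways. Of 27 listed, 20 were tested, with 10 positive, 10 negative and a median of -0.03, and 0 were called. Cited2 is also on this list. At an unadjusted p under 0.05, 2 of 20 were higher (Cox4i2 and Tfrc), against 6.67% of all genes tested. At the same threshold 3 of 20 were lower (Bhlhe40, Kdm4b and Cited2), against 7.63%. Tfrc, the transferrin receptor gene through which cells take up iron, stood at 23.2, 13.4 and 37.7 CPM in Control and at 69.5, 36.2 and 73.9 CPM in IMP1 libraries (1.27, SE 0.42, adjusted p = 0.239), and DESeq2 called it. Kdm4b, a histone demethylase gene, stood at 14.1, 9.54 and 16.5 CPM in Control and at 4.65, 3.26 and 6.86 CPM in IMP1 libraries (-1.44, SE 0.48, adjusted p = 0.244). Both were named after their values were seen. Edn1 and Epo, which encode endothelin and erythropoietin, had no count in any library. Cox4i2 encodes the cytochrome c oxidase subunit isoform that replaces the usual one under hypoxia in some tissues. It stood at 1.05, 0.871 and 1.16 CPM in Control and at 9.14, 12.1 and 11.1 CPM in IMP1 libraries, on 22 to 29 and 575 to 841 reads. The groups were far apart, with a log2 fold change of 3.39 (SE 0.55, adjusted p = 0.0614), and over 17 other settings it lay between 3.28 and 3.56, passing in 2 (DESeq2 and the newer edgeR settings). Bhlhe40, a transcriptional repressor gene induced by hypoxia, stood at 33.7, 18.4 and 26.4 CPM in Control and at 12.4, 8.47 and 12.6 CPM in IMP1 libraries (-1.23, SE 0.36, adjusted p = 0.182). DESeq2 called it (adjusted p = 0.0444). Loxl2, a lysyl oxidase gene with the highest CPM of the list, stood at 78.3 ± 8.63 and 80.7 ± 8.89 CPM (0.04, SE 0.17, adjusted p = 0.936).

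Of the HIF targets of glucose use, all 18 were tested, with 3 positive, 15 negative and a median of -0.42. Every IMP1 library was below every Control library for 9 of 18, against 11.1% of all genes tested, and 0 were called. Pkm (-0.72, SE 0.12) and Gapdh (-0.67, SE 0.11) had the same adjusted p as Ndrg1 and Cox4i2, 0.0614, and Ldha (-0.81, SE 0.14) had one of 0.0703. DESeq2 called 6 of the 18 lower (Aldoa, Eno1, Gapdh, Ldha, Pgk1 and Pkm), the strict filter 4 of 17 and the newer edgeR settings 2 of 18. The shares of all genes called in either direction under these settings were 5.55%, 1.4% and 0.383%. Whether the members differ from this list was not tested.

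**Figure D3:**
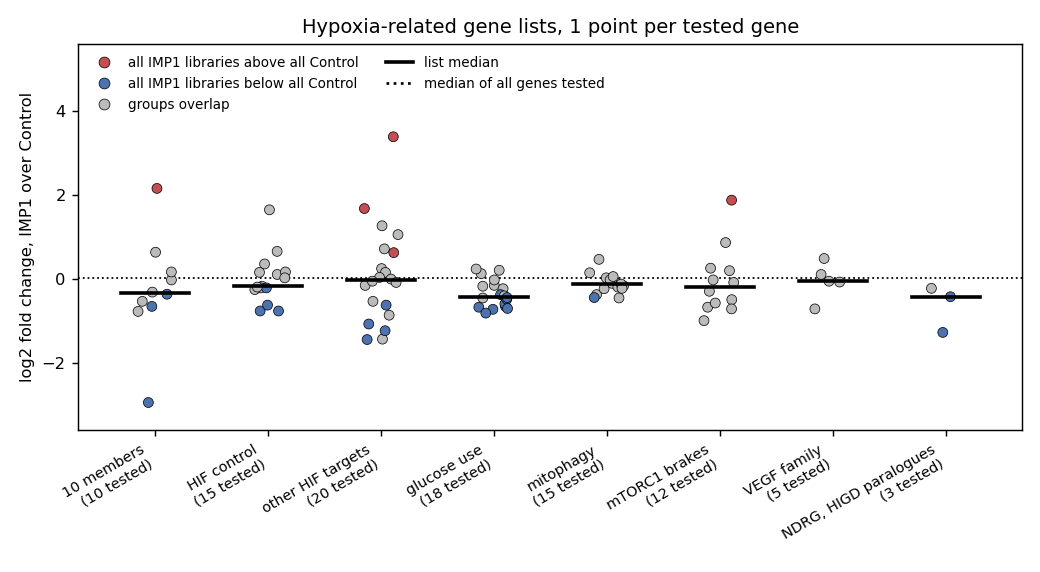
Log2 fold change of IMP1 over Control for each tested gene of the members and 7 related lists, with bars for list medians and a dotted line for the median of all genes tested (0.03). Genes of glucose use cluster below the line (median -0.42), while the other HIF targets spread to both sides of it (median -0.03).

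Immediate-early genes, which sorting stress can induce, were followed beside the members because several hypoxia targets also answer to stress. Of 11 genes 10 were tested, with 8 positive, a median of 1.17 (0.38 without IMP1 2) and 0 called. Fos stood at 0, 0.158 and 0 CPM in Control and at 4.73, 66.4 and 0.443 CPM in IMP1 libraries. Zfp36 stood at 27.3, 27.1 and 14 CPM in Control and at 30.5, 82.9 and 31.8 CPM in IMP1 libraries. Ier3 stood at 45.8 ± 16.7 and 30.4 ± 9.43 CPM. IMP1 2, highest for Fos and Zfp36, was the lowest library for Ndrg1, Egln1 and Ddit4 and the lowest IMP1 library for Vegfa. Without IMP1 2 the log2 fold change of Ndrg1 was -2.57 and that of Vegfa 2.35, and the part of immediate-early expression in these values was not tested.

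**Figure D4:**
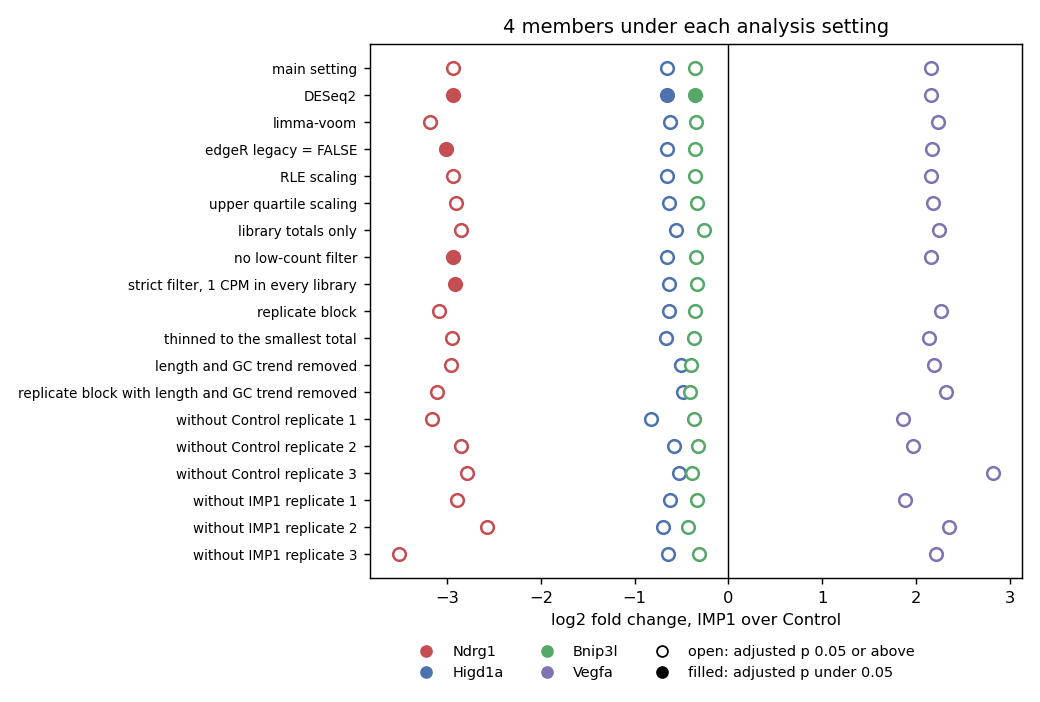
Log2 fold change of IMP1 over Control for Ndrg1, Higd1a, Bnip3l and Vegfa under the main setting and 18 alternatives, with filled points for an adjusted p under 0.05. No point crosses 0, Ndrg1 is filled in 4 alternatives, Higd1a and Bnip3l in DESeq2 alone and Vegfa in none, and the strict filter left Vegfa out.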

How the data were processed

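RNA was measured in 200 sorted LT-HSCs per library, with 3 Control and 3 IMP1 libraries. Per the labels' protocols, libraries came from a SMARTer Ultra Low RNA kit. The deposited values are unnormalized read counts, 1 row per Entrez identifier. The submitters' processing notes name TopHat2 2.0.10 and mm9. The counting program and its strand setting are not given in the sources used here. Symbols came from RefSeq GRCm38.p6 (21615 identifiers matched), as did promoter windows, and transcript lengths from GENCODE, used for lengths, overlaps and near copies only. 

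Counts were tested with edgeR 4.0.16 in R 4.3.3 (quasi-likelihood F test, TMM scaling, filterByExpr, genotype as the single term, all 6 libraries), with Benjamini-Hochberg adjustment over 12807 genes. Standard errors are the absolute log2 fold change over the square root of F, and intervals are 95%. The fit was tested on simulated data. Alternatives used DESeq2 1.42.0, limma 3.58.1, other scalings and filters, thinning, a length and GC trend, a replicate block and each library left out. The members, gene lists and tests were chosen with earlier results of these data known. Of each list the text names genes past the threshold, the 2 of lowest p and the most abundant. No 2 libraries were duplicates (chi-square per degree of freedom at least 62.9 within a group). The labels call the replicates biological. CPM values are counts of amplified reads, which are not independent molecules. Rows without a symbol (146) stayed in the fit.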

Additional observations from a re-analysis of the deposited data

How the results depend on the processing

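Directions of 8 members (all but Epas1 and Egln3) were the same under all settings run, 17 or 18 for each. The number of genes called moved from 27 to 694 with DESeq2, 11 with limma-voom, 49 with the newer edgeR settings (legacy = FALSE), 16 with library totals alone, 145 with the strict filter (at least 1 CPM in every library), 12 with the length and GC trend removed and 0 to 2 with 1 library left out. The number of members called moved from 0 to 3 with DESeq2 and to 1 (Ndrg1) with the newer edgeR settings (adjusted p = 0.0268), no low-count filter (0.0391) and the strict filter (0.0112), and was 0 with each library left out. The strict filter tested 10363 genes. Library totals alone changed the split of genes at an unadjusted p under 0.05 from 854 higher and 977 lower to 1153 and 649.

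With the replicate block 4 genes were called, and 0 with the block and the length and GC trend removed. Same-numbered libraries hardly deviated together (correlations 0.04, 0.04 and 0.02). IMP1 1 and IMP1 2 correlated best with their own number, and IMP1 3 with Control 1 (0.03). With 3 libraries per group, values this near 0 cannot show whether the numbers pair the samples.

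The log2 fold change of Epas1 turned from -0.02 to 0.75 with limma-voom, 0.02 with legacy = FALSE and with upper quartile scaling, 0.08 with library totals, 0.04 after thinning, 0.63 with the replicate block, 0.53 with the block and trend removal, and lay between -0.56 and 0.76 with a library left out. That of Egln3 turned to -0.39, -0.35 and -0.50 without Control 2, Control 3 and IMP1 1, and with a library left out lay between -0.50 and 3.60. Loxl2 turned to -0.05 with the trend removed, with and without the block, and lay between -0.05 and 0.14 with a library left out. Sesn1 turned to 0.01 with library totals and lay between -0.22 and 0.05 with a library left out. Vegfc turned to -0.18 with limma-voom, -0.29 with the replicate block, -0.25 with the block and trend removal and lay between -0.76 and 0.55 with a library left out. Nrp1 turned to 1.35, 1.84 and 1.78 under those settings and lay between -1.30 and 3.15 with a library left out. None of these 6 genes passed the test under any setting run, and the cause was not tested. The median of the other HIF targets turned from -0.03 to 0.07 with library totals and to 0.01 with limma-voom and with no low-count filter, and lay between -0.17 and 0.06 with a library left out. Low read numbers limit Epas1, Egln3, Vegfa and Ddit4.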
